A study of Homo sapiens with 4 samples.

Results

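The genes described here are those of the ATF4 response, with the enzymes and carriers that make and import amino acids, in A549 lung carcinoma cells depleted of the proteasome activator PSME4. They were taken by symbol from a list of 34 genes, and 33 of them were among the 15037 rows of the count table. Expression of CBS was not analysed here, and CBS enters only the promoter search. All 33 passed the filter on low counts, which kept 13497 genes. The comparison was between 2 libraries of PSME4 knockdown cells (PSME4 KD) and 2 libraries of a knockdown directed at RFP, which the labels use as the control (control KD). Both groups are the same cell line grown in DMEM, and the labels give neither the kind of knockdown nor its duration, nor whether libraries of a group were separate cultures. The p-values therefore reflect the scatter of these 4 libraries, and that scatter may be technical. Every fold change is PSME4 KD over control KD with n = 2 per group, and a gene is said to have risen or fallen only where its adjusted p was under 0.05 (edgeR quasi-likelihood test, Benjamini-Hochberg adjustment over the 13497 genes). CPM is the usual depth-scaled read count, here over TMM-scaled library sizes.

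ATF4 is a transcription factor whose protein is made when kinases that sense missing amino acids, unfolded protein, haem shortage or viral RNA phosphorylate the initiation factor eIF2. General translation then slows, while upstream reading frames in the ATF4 message let its own coding region be read, so the amount of ATF4 protein can change without a change of its mRNA. ATF4 pairs with C/EBP proteins and turns on genes for amino acid synthesis, amino acid uptake and tRNA charging, together with feedback genes that restore translation. A549 cells carry inactive KEAP1, and in such lung carcinoma cells the factor NRF2 is known to raise serine synthesis through ATF4.

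PSME4 mRNA itself stood at 158 and 180.3 CPM in the control KD libraries and at 75.3 and 85.1 CPM in the PSME4 KD libraries, a log2 fold change of −1.08 (SE 0.20; edgeR quasi-likelihood, Benjamini-Hochberg adjusted p = 0.000855). The groups were well apart, although with 1 library left out PSME4 passed only without PSME4 KD 2. Library depth was 11766371 to 15208588 counts, of which the 33 genes held 36126 to 49168. The 9 epithelial and A549 markers summed to 24640 to 28960 CPM in all libraries, of which ALDH1A1 held 12090 to 14380 CPM. Of the epithelial markers, KRT18 stood at 2820 to 4119 CPM, but EPCAM at only 5.42 to 7.88 CPM and KRT19 at 1.71 to 3.78 CPM. Of the leukocyte markers, CD68 and CD14 had rows, summing to 28.5 to 39.4 CPM. The 3 fibroblast markers with rows, COL1A1, PDGFRA and LUM, summed to 17.2 to 28.6 CPM. No endothelial marker was among the rows. Fold changes rose with the GC content of the transcripts over all genes (Spearman's rho 0.40 across 13205 genes, which are not replicates). Over the 33 ATF4-response genes rho was 0.17 for the fold change and −0.52 for control KD 2 over control KD 1, so the control libraries differed along GC content. Values fitted with a GC-dependent offset per library (the GC correction) are given beside the results; the part of GC content in them was not tested otherwise.

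The ATF4-response genes did not move as a block. Of the 33, 2 rose and 2 fell, while 29 missed the threshold. That is 12.1% of the genes, where 10.6% of all tested genes passed (4.56% higher and 6% lower). SLC1A5, the main glutamine importer, and NUPR1, a small stress-induced nuclear protein, rose. CEBPG, a C/EBP partner of ATF4, and STC2, a secreted glycoprotein, fell. DESeq2 called 3 of the 33 (10.3% of the genes it tested), limma voom 4 (10.3%) and edgeR with the GC correction 4 (9.26%). DESeq2 gave no adjusted p for ASNS and CHAC1. Without adjustment, 7 of the 33 had an edgeR p below 0.05 (3 higher and 4 lower), where 26.2% of all tested genes did. In bulk RNA a change in every cell and a change in the share of cells cannot be told apart. The median log2 fold change of the 33 was 0.064, against −0.0021 over all tested genes, and the values ran from −0.86 to 0.90. By sign, 18 of the 33 were above 0. The groups were apart, with no shared range, in 15 genes, 6 higher and 9 lower after PSME4 KD, where 55% of all tested genes had no overlap (26.7% higher and 28.4% lower). In 21 of the 33 genes the libraries of one group differed by more than the groups did, against 56.8% of all tested genes. The 95% interval lay within a 2-fold change either way for 24 of the 33 genes, and for 64.3% of all tested genes; with 1 library left out it did so for 16 to 23 of the 33.

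By role, the median log2 fold change was −0.24 for the 8 transcription factors, 0.0085 for the 8 feedback and signalling genes, 0.19 for the 6 serine and one-carbon enzymes, −0.023 for the 5 other enzymes and 0.19 for the 6 carriers. With the GC correction the same medians were −0.42, −0.23, 0.14, 0.033 and 0.12, and the median of all 33 was −0.090. The sign of the median over all 33 genes, and over the feedback genes and the other enzymes, thus turned with this correction. These medians also took both signs with 1 library left out (−0.12 to 0.042 for all 33, −0.061 to 0.040 for the feedback genes and −0.25 to 0.098 for the other enzymes), and that of the transcription factors ran from −0.46 to −0.018. None of the 4 genes that passed shares its RefSeq span with another gene.

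**Figure D1:**
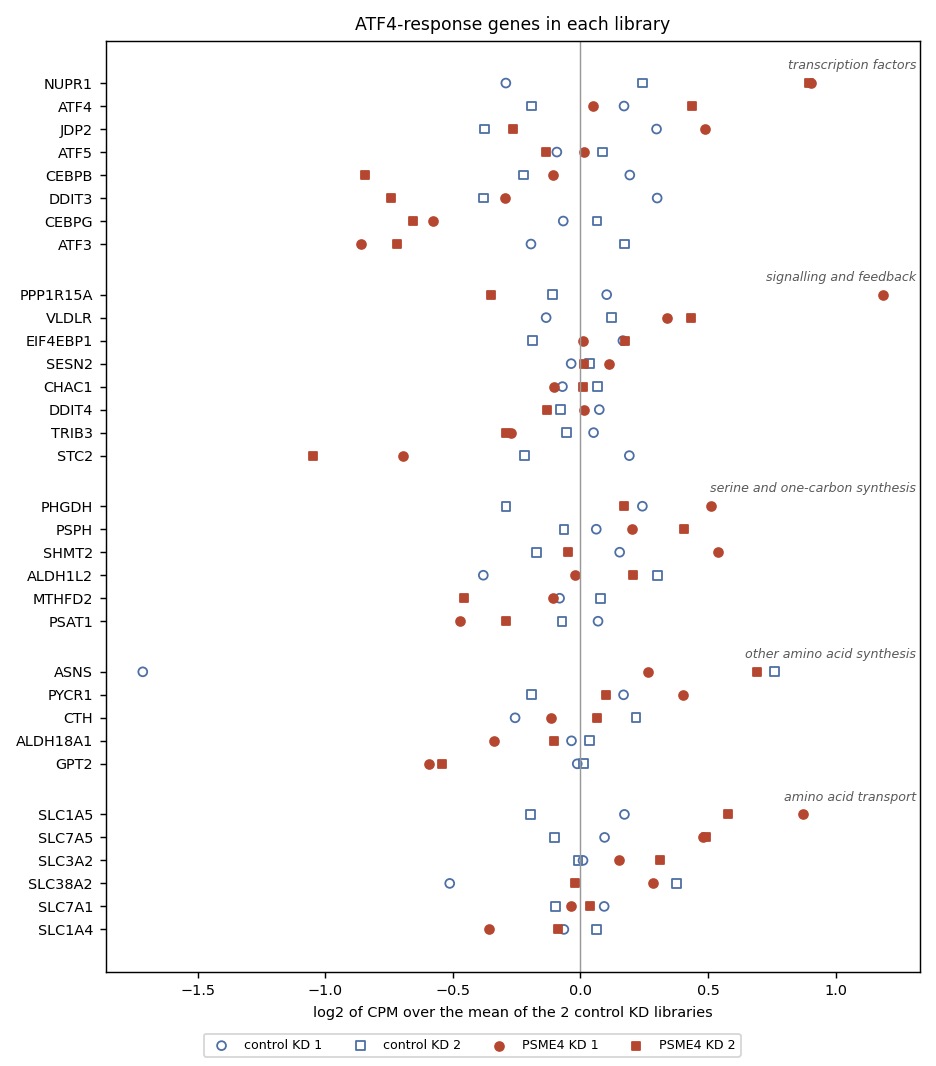
Level of each of the 33 genes in each library, as log2 of its CPM over the mean of the 2 control KD libraries (x axis), by role (y axis). Open blue symbols are control KD, filled red symbols PSME4 KD, circles replicate 1 and squares replicate 2. Both red symbols lie to the right of both blue ones in 6 genes and to the left in 9, and the symbols of the groups mix in the other 18.

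**Figure D2:**
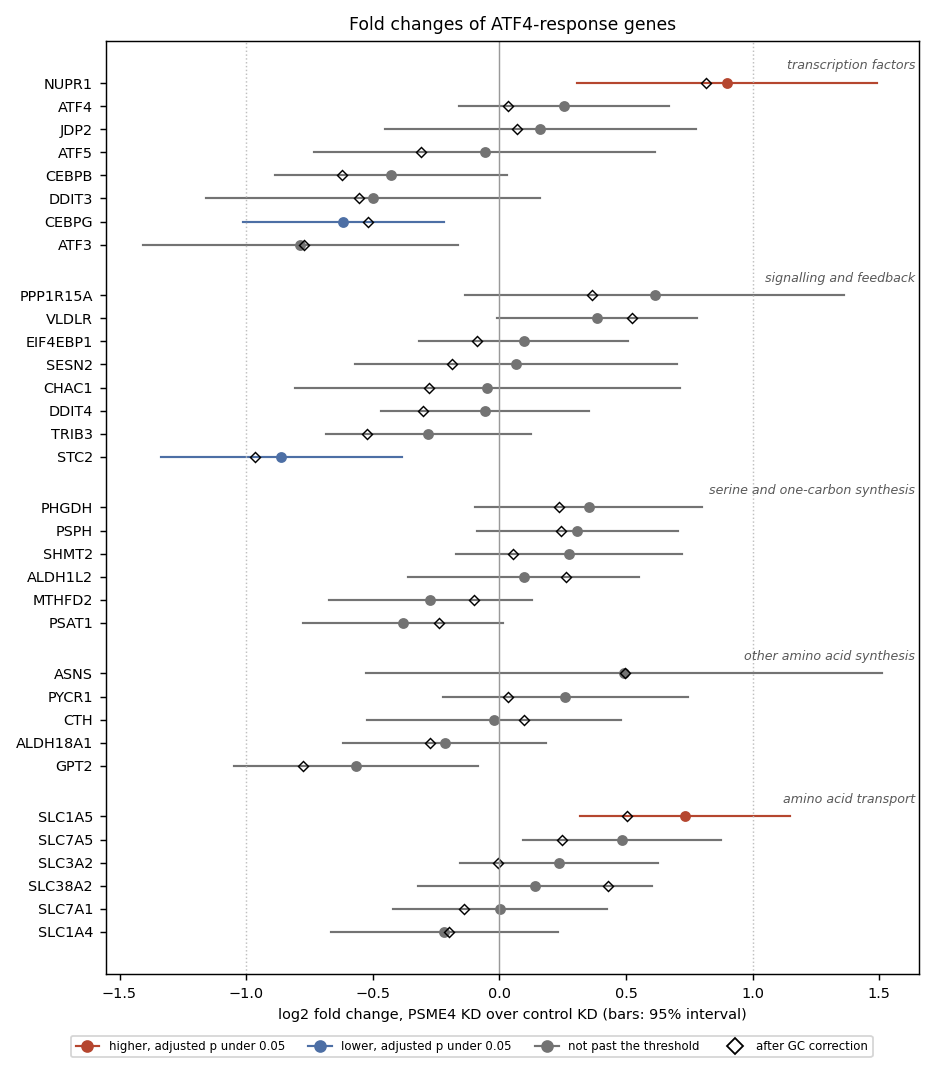
Log2 fold change of PSME4 KD over control KD for the same genes (x axis, n = 2 per group). Bars are unadjusted 95% intervals, red marks genes that rose, blue genes that fell, and open diamonds are the values after the correction for GC content. NUPR1 and SLC1A5 are red, CEBPG and STC2 blue, and the diamonds of NUPR1 and SLC1A5 lie nearer to 0 than their dots.

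The promoters of these genes were searched because ATF4 and C/EBP dimers bind a shared composite element, whose core is written here as TGATGNAA (N is any base, both strands). RefSeq start sites on GRCh38.p14 were matched for 27 of the genes by symbol, each with a window from 250 bases before to 50 after the start. The core was in a window of 9 of the 27 genes (33.3%), against 2.8% of 10475 tested genes with a window and 3.62% of all 35116 RefSeq windows. Genes with several starts have several windows. The 9 genes were ATF3, ASNS, CEBPG, CHAC1, JDP2, SLC1A4, SLC1A5, SLC3A2 and SLC7A1. The list was assembled as ATF4 genes, so this share describes the list. The cAMP response element TGACGTCA, which does not overlap the other core in these windows, was in 1 of the 27 (PPP1R15A) and in 3.8% of the tested genes.

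Of the 9 genes with the core, CEBPG fell and SLC1A5 rose, and SLC1A5 did not pass after the GC correction. Over all tested genes 10.6% passed. The match of both genes reads TGATGCAA, 42 bases before the second RefSeq start of CEBPG and 97 before the third of SLC1A5. Both of these starts lie inside the gene's span, downstream of its first start, and the windows at the other starts of these genes held no match. The 250 bases before the start are shown, 5′ to 3′ on the strand of the gene, with matches in capitals, for these 2 genes, for STC2, which fell without a match in its window, and for ASNS, whose element 68 bases before the start is the textbook example of an amino acid response element. NUPR1 was not matched to a window. CEBPG lies on the plus strand (chr19:33373863-33374112), and SLC1A5 (chr19:46784815-46785064), STC2 (chr5:173328415-173328664) and ASNS (chr7:97872409-97872658) lie on the minus strand.
CEBPG: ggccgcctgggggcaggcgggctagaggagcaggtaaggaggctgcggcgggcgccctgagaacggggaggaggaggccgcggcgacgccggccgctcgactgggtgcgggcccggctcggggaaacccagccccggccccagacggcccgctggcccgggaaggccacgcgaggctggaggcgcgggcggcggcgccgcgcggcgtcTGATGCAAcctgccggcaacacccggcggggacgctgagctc
SLC1A5: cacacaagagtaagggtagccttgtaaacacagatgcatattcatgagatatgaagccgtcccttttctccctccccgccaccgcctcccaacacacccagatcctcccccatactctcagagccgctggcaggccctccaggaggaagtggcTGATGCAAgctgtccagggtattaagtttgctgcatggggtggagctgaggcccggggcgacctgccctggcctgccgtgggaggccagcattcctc
STC2: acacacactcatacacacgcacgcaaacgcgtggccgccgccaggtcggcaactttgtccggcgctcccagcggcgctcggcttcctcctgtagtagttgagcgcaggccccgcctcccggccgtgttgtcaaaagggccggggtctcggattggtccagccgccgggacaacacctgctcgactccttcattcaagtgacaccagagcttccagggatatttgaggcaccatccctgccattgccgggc
ASNS: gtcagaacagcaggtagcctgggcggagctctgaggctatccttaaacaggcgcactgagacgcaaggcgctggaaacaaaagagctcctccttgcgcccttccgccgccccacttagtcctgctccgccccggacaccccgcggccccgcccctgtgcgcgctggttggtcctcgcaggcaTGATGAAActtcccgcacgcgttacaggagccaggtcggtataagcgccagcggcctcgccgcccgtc

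Among the transcription factors, ATF4 stood at 347 and 269.6 CPM in the control replicates (1, then 2), and at 318 and 417 CPM in the PSME4 KD replicates. The groups overlapped, and the replicates of each group were further apart than the group means. Its log2 fold change was 0.25 (SE 0.20, 95% interval −0.16 to 0.67), with an edgeR quasi-likelihood, Benjamini-Hochberg adjusted p of 0.449. With the GC correction it was 0.035, and with 1 library left out it lay between 0.074 (PSME4 KD 2 left out) and 0.45 (control KD 1 left out).

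CEBPG lacks the activating region of other C/EBP proteins and works through its dimer partners, of which ATF4 is one. Its mRNA, with the TGATGCAA match before its second start, stood at 119.7 and 131 CPM in the control KD libraries and at 84.1 and 79.6 CPM in the PSME4 KD libraries. Both PSME4 KD values lay below both control values, and replicates were close. The fall was 1.53-fold, a log2 fold change of −0.62 (SE 0.19; edgeR quasi-likelihood, Benjamini-Hochberg adjusted p = 0.0398). It was −0.52 with the GC correction and still passed. The gene lies at positions 33373709 to 33382686 of chromosome 19 on GRCh38.

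NUPR1 is a chromatin-associated stress protein that ATF4 is known to induce. It was at 4.15 and 6.02 CPM in the control replicates (1, then 2), and at 9.52 and 9.45 CPM in the PSME4 KD replicates. The groups did not overlap, but the level was low, with 48 and 70 counts in the control KD libraries against 145 and 144. The rise was 1.86-fold, a log2 fold change of 0.90 (SE 0.29; edgeR quasi-likelihood, Benjamini-Hochberg adjusted p = 0.0444). NUPR1 lies at positions 28532708 to 28538974 of chromosome 16. It did not pass after the GC correction (0.81, edgeR, Benjamini-Hochberg adjusted p = 0.0552) or by DESeq2 (adjusted p = 0.0779).

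The other factors did not pass. ATF3, an early stress-induced repressor, was lower in both PSME4 KD libraries (3.88 and 4.27 CPM) than in both control KD libraries (6.14 and 7.91 CPM), at a log2 value of −0.79 (SE 0.30; edgeR quasi-likelihood, Benjamini-Hochberg adjusted p = 0.0937). CEBPB, the C/EBP factor that ATF4 commonly pairs with, stood at 94.6 and 70.9 CPM in the controls and at 76.8 and 46.1 CPM after PSME4 KD, so the groups overlapped. Its log2 value was −0.43 (SE 0.22), and after the GC correction it passed, at −0.62 (edgeR, Benjamini-Hochberg adjusted p = 0.0421). With 1 library left out it ran from −0.84 (PSME4 KD 1) to −0.080 (PSME4 KD 2), and was −0.21 without control KD 1. DDIT3 (CHOP), the factor linked to cell death under lasting stress, was low, at 7.44 and 4.64 CPM in the controls and 4.93 and 3.61 CPM after PSME4 KD. Its log2 value was −0.50 (SE 0.32), and ran from −0.79 (control KD 2 left out) to −0.12 (control KD 1 left out). CEBPB and DDIT3 are both uncertain in one respect, since in RefSeq each shares 70.5% of its span with another gene (CEBPB-AS1 and LOC128125814), and the strand setting of the counting is not stated. ATF5, which is translated by a route like that of ATF4, was at −0.059 (SE 0.33), and JDP2, a repressor of the AP-1 family, at 0.16 (SE 0.30). Both had under 11 CPM in every library, and their groups overlapped.

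Feedback and signalling genes include those that shut the response off. STC2 fell. It stood at 35.5 and 26.7 CPM in the control replicates (1, then 2) and at 19.2 and 15.03 CPM in the PSME4 KD replicates. Both control libraries lay above both PSME4 KD libraries, and the 1.82-fold decrease gave a log2 fold change of −0.86 (SE 0.23; edgeR quasi-likelihood, Benjamini-Hochberg adjusted p = 0.0178). The value with the GC correction was −0.96 and still passed. STC2 lies at positions 173314723 to 173328414 of chromosome 5.

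None of the other 7 genes of this role passed by edgeR, limma voom or, CHAC1 apart, DESeq2, and by edgeR none of the 7 had even an unadjusted p below 0.05. TRIB3, a pseudokinase that binds ATF4 and damps it, was at 66.2 and 61.6 CPM in the controls and at 52.9 and 52.2 CPM after PSME4 KD. Its groups did not overlap, and its log2 value was −0.28 (SE 0.20). With the GC correction TRIB3 was at −0.52 (edgeR, Benjamini-Hochberg adjusted p = 0.0520). VLDLR, a lipoprotein receptor induced under stress of the endoplasmic reticulum, was higher in both PSME4 KD libraries, at 169 and 180 CPM against 122 and 146 CPM, with a log2 value of 0.39 (SE 0.19). After the GC correction VLDLR was at 0.52 (edgeR, Benjamini-Hochberg adjusted p = 0.0506). PPP1R15A (GADD34) directs a phosphatase to eIF2 and so ends the response. It was at 4.59 and 3.96 CPM in the controls and at 9.72 and 3.35 CPM after PSME4 KD, so that PSME4 KD 1 alone carried its log2 value of 0.61 (SE 0.37). Without that library the value was −0.35. The cysteine-glycine releasing enzyme CHAC1, which degrades glutathione, was at −0.047 (SE 0.37), from 28 to 39 counts per library. SESN2 and DDIT4, both inhibitors of the growth kinase mTORC1, were at 0.064 (SE 0.31) and −0.058 (SE 0.20). EIF4EBP1, which holds back the cap-binding protein of translation, was at 0.095 (SE 0.20).

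**Figure D3:**
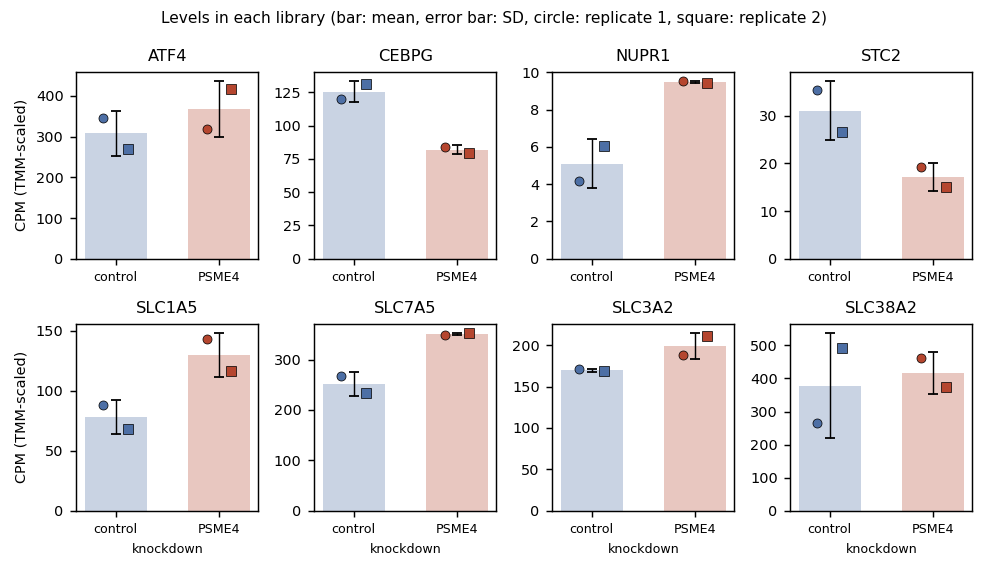
CPM (y axis, from 0) of ATF4, the 4 genes that passed the test and the carriers SLC7A5, SLC3A2 and SLC38A2 in control KD (blue) and PSME4 KD (red). Bars are means, error bars SDs over 2 libraries, circles replicate 1 and squares replicate 2. The symbols of the groups are apart in CEBPG, NUPR1, STC2, SLC1A5, SLC7A5 and SLC3A2, and mix in ATF4 and SLC38A2.

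Serine is made from a glycolytic intermediate by PHGDH, PSAT1 and PSPH in turn, and SHMT2, MTHFD2 and ALDH1L2 use it to feed one-carbon units through mitochondria. None of these 6 genes passed by edgeR, DESeq2 or limma voom, and with edgeR none had an unadjusted p below 0.05. Their values went both ways within the same route. The middle enzyme PSAT1 was lower in both PSME4 KD libraries, at 421 and 477 CPM against 613 and 556 CPM, with a log2 value of −0.38 (SE 0.19, 95% interval −0.78 to 0.016). The last enzyme PSPH was higher in both, at 127 and 146 CPM against 115 and 105 CPM, with a value of 0.31 (SE 0.19). PHGDH, the first enzyme, overlapped between groups, at 45.1 and 31.1 CPM in the controls and 54.3 and 42.9 CPM after PSME4 KD, with a value of 0.35 (SE 0.22) that ran from 0.12 (control KD 2 left out) to 0.64 (control KD 1 left out), with 0.17 and 0.54 when PSME4 KD 1 or 2 was dropped. In the mitochondrial steps MTHFD2 was at −0.27 (SE 0.20), SHMT2 at 0.27 (SE 0.22) and ALDH1L2 at 0.095 (SE 0.22). With the GC correction these values were −0.10, 0.052 and 0.26 in the same order. MTHFD2 was at −0.46 without PSME4 KD 1 and at −0.077 without PSME4 KD 2.

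Of the 5 tested enzymes for other amino acids, none passed by edgeR or limma voom, and by DESeq2 none of the 4 that had an adjusted p passed, ASNS having none. A single one had an unadjusted p below 0.05 with edgeR, GPT2, the mitochondrial alanine aminotransferase, at 18.1 and 18.4 CPM in the controls and at 12.1 and 12.5 CPM after PSME4 KD. The groups were well apart and replicates nearly equal, yet the log2 value of −0.57 (SE 0.24) had an edgeR quasi-likelihood, Benjamini-Hochberg adjusted p of 0.119. With the GC correction GPT2 was at −0.78 and passed (edgeR, Benjamini-Hochberg adjusted p = 0.0200). The proline enzymes were at −0.22 (SE 0.20) for ALDH18A1, which opens the route from glutamate, and 0.26 (SE 0.24) for PYCR1, which closes it. After the GC correction ALDH18A1 was at −0.27 and PYCR1 at 0.033. With 1 library left out PYCR1 ran from 0.098 (control KD 2) to 0.45 (control KD 1), and ALDH18A1 was −0.10 without PSME4 KD 1. CTH, which makes cysteine from cystathionine, was at −0.023 (SE 0.25).

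ASNS, asparagine synthetase and a standard readout of ATF4, could hardly be measured. It had 5 and 28 counts in control replicates 1 and 2 and 26 and 35 counts in PSME4 KD replicates 1 and 2. The control replicates differed more than the groups, and the log2 value was 0.49 (SE 0.50, 95% interval −0.53 to 1.51). Without control KD 1 it was −0.27, and without control KD 2 it was 2.19, neither past the threshold. In RefSeq a readthrough gene, CZ1P-ASNS, covers 99.4% of ASNS, and that row held 4 to 13 counts per library. The sources used here do not say how reads within both genes were counted, so the low ASNS level is uncertain.

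Of the 6 amino acid carriers, 1 rose. In 3 of the 6 both PSME4 KD libraries lay above both controls, and in 1 below, where 26.7% of all tested genes were higher and 28.4% lower without overlap. SLC1A5 (ASCT2), a sodium-dependent carrier that imports glutamine in exchange for other neutral amino acids, stood at 88.0 and 68.2 CPM in the control replicates (1, then 2) and at 143 and 117 CPM in the PSME4 KD replicates. All PSME4 KD values lay above all control values. The rise was 1.66-fold, a log2 fold change of 0.73 (SE 0.20; edgeR quasi-likelihood, Benjamini-Hochberg adjusted p = 0.0208). With the GC correction it was 0.50 and did not pass (edgeR, Benjamini-Hochberg adjusted p = 0.0623). The gene lies at positions 46774883 to 46788594 of chromosome 19, and its TGATGCAA match is before the third start.

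SLC7A5 (LAT1) and SLC3A2 (4F2hc) form a heterodimer that exchanges glutamine for leucine and other large neutral amino acids. SLC7A5 was at 268 and 234 CPM in the controls and at 350.0 and 353 CPM after PSME4 KD, a log2 value of 0.48 (SE 0.19; edgeR quasi-likelihood, Benjamini-Hochberg adjusted p = 0.102). SLC3A2 was at 171 and 168 CPM in the controls and at 188 and 210 CPM after PSME4 KD, a log2 value of 0.23 (SE 0.19). Neither pair of groups overlapped, and neither gene passed. The GC correction put SLC7A5 at 0.25 and SLC3A2 at −0.0073.

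The remaining carriers showed smaller differences. SLC38A2 (SNAT2), which ATF4 raises when amino acids are short, differed most between replicates among the carriers, at 266 and 492 CPM in the controls and at 462 and 373 CPM after PSME4 KD. Its log2 value of 0.14 (SE 0.23) became −0.24 without control KD 1 and 0.66 without control KD 2. The arginine and lysine carrier SLC7A1 was at 0.00044 (SE 0.21), with 35.6 to 40.7 CPM in all libraries. SLC1A4, a serine and alanine exchanger, was at −0.22 (SE 0.22), and at −0.087 without PSME4 KD 1.

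With any one library left out, none of CEBPG, NUPR1, STC2 and SLC1A5 passed by edgeR, and neither did any other of the 33 genes. Leaving out, in turn, the first control, the second control, PSME4 KD 1 or PSME4 KD 2 left 8, 9, 4 and 5 of the 33 with an unadjusted p below 0.05, where 24.4%, 23.4%, 15.8% and 12.5% of all tested genes had one. After adjustment these fits called 0.378%, 0.669%, 0.312% and 2.05% of all tested genes. The log2 values in that order were −0.68, −0.54, −0.66 and −0.55 for CEBPG and −0.64, −1.05, −1.05 and −0.67 for STC2. They were 0.65, 1.2, 0.89 and 0.94 for NUPR1 and 0.93, 0.57, 0.58 and 0.90 for SLC1A5. Since the groups of these 4 genes do not overlap, their direction is fixed in such fits. Tested against a log2 change of 0.58, none of the 33 passed by edgeR, and 2 had an unadjusted p under 0.05, as did 7.18% of all tested genes. With the GC correction 4 of the 33 passed, all lower: CEBPG, STC2, CEBPB and GPT2. Over all 13497 tested genes that fit called 553 higher and 697 lower (9.26% in either direction). The authors' deposited table gives adjusted p-values of 0.0329 for CEBPG, 0.0259 for STC2, 0.0192 for SLC1A5 and 0.102 for NUPR1. A second adjusted column of the authors' deposited table, headed as after a further FDR correction, has 0.451, 0.419, 0.392 and 0.631 in the same order.

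Further genes of the same pathways were taken from 7 lists of 225 genes that are not among the 34, of which 203 were tested. Of these, 12 rose and 10 fell, a share of 10.8% where 10.6% of all tested genes passed, and the median log2 fold change was −0.024. With the GC correction 8 were higher and 14 lower, where 553 of the 13497 tested genes were higher and 697 lower. None of them passed by edgeR with control KD 1, control KD 2 or PSME4 KD 1 left out, where 58, 46 and 32 had an unadjusted p below 0.05, and 5 passed with PSME4 KD 2 left out.

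**Figure D4:**
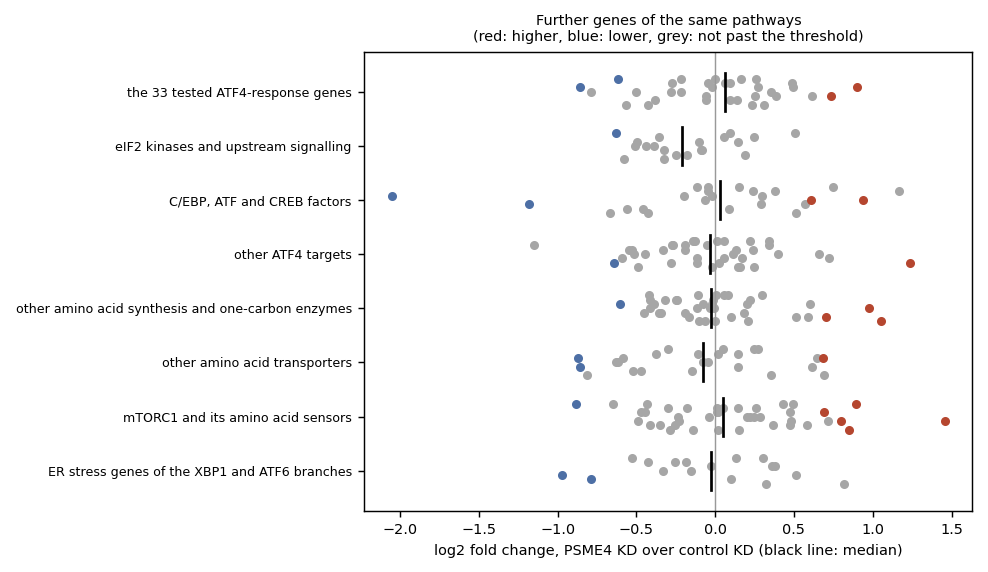
Log2 fold change (x axis, PSME4 KD over control KD, n = 2 per group) of the 33 genes and of the tested genes in 7 further lists (y axis). Each point is a gene, red where it rose, blue where it fell and grey where it did not pass. Black lines are medians, which lie between −0.21 and 0.064.

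Upstream of ATF4, 1 of 20 genes of eIF2 signalling fell and none rose, a share of 5% where 10.6% of all tested genes passed. By the unadjusted edgeR p below 0.05, 1 was higher and 5 lower, where 12.1% of all tested genes were higher and 14.1% lower. DESeq2 and limma voom each called 2 lower and 0 higher, where each called 10.3% of the genes it tested. EIF2S2, the beta subunit of eIF2, fell from 242 and 222 CPM in the controls to 162 and 138 CPM after PSME4 KD (log2 fold change −0.63, SE 0.19). The median of the list was −0.21. Of 24 tested genes in a list of other C/EBP, ATF and CREB factors, 2 rose and 2 fell, a share of 16.7% against 10.6% of all tested genes. The list also holds factors outside these families, and the 2 that fell are both small Maf proteins. The small Maf proteins MAFK (−1.18, SE 0.23) and MAFF (−2.05, SE 0.44), partners of NRF2 at its target genes, fell, and ATF6B, a relative of the endoplasmic reticulum stress sensor ATF6, rose (0.94, SE 0.24). MAFF was at 3.46 and 2.58 CPM in the controls and at 0.723 and 0.722 CPM after PSME4 KD, a low level for which DESeq2 gave no adjusted p. MAFK stood at 69.5 and 61.7 CPM in the controls and at 20.7 and 37.0 CPM after PSME4 KD. MAFG, another small Maf protein of the list, did not pass (−0.067, SE 0.21). Its groups overlapped, at 38.7 and 36.0 CPM in the controls and 32.6 and 38.6 CPM after PSME4 KD.

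Among 38 further ATF4 targets, 1 rose and 1 fell, a share of 5.26% against 10.6% of all tested genes. The glycine carrier SLC6A9 rose (1.23, SE 0.35) from 1.90 and 2.67 CPM in the controls to 5.52 and 5.25 CPM after PSME4 KD, but passed neither by DESeq2 nor after the GC correction (0.98). CCPG1, a receptor for autophagy of the endoplasmic reticulum, fell (−0.64, SE 0.20), and was at −0.40 after the GC correction and at −0.39 without PSME4 KD 2, past the threshold in neither. With the GC correction edgeR called 1 higher and 5 lower in the list, SLC6A9 and CCPG1 not among them. Over all 13497 tested genes that fit called 553 higher and 697 lower (9.26% in either direction). Of 17 genes of the XBP1 and ATF6 branches of the unfolded protein response, 2 fell and none rose, a share of 11.8% against 10.6% of all tested genes. By the unadjusted edgeR p below 0.05 there were 1 higher and 4 lower, against 26.2% of all tested genes in either direction. DESeq2 called 3 lower and limma voom 2 lower, with 0 higher by either, where each called 10.3% of the genes it tested. DNAJB9, a co-chaperone and XBP1 target, fell (−0.97, SE 0.21) from 43.2 and 45.2 CPM to 24.6 and 20.3 CPM. The disulfide isomerase PDIA6 fell (−0.79, SE 0.21), and was at −0.52 without control KD 1.

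Of 38 other enzymes of amino acid and one-carbon metabolism, 3 rose and 1 fell, a share of 10.5% against 10.6% of all tested genes. ASS1 and ASL make arginine from citrulline in consecutive steps. ASS1 went from 20.6 and 18.9 CPM in the controls to 31.5 and 33 CPM after PSME4 KD (0.71, SE 0.22). ASL went from 8.82 and 7.31 CPM to 16.7 and 15.03 CPM (0.98, SE 0.25). Both pairs of groups were apart, and ASS1 did not pass after the GC correction (0.47). BCAT2, the mitochondrial aminotransferase of branched-chain amino acids, rose (1.05, SE 0.25), with 35.5 CPM in PSME4 KD 1 against 21.9 CPM in PSME4 KD 2, and was at 0.66 without PSME4 KD 1.

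Of 25 other amino acid carriers, 1 rose and 2 fell, a share of 12% against 10.6% of all tested genes. SLC25A13, a mitochondrial aspartate-glutamate carrier, fell from 112 and 120.3 CPM in the controls to 61.8 and 65.9 CPM after PSME4 KD (−0.86, SE 0.20). SLC1A1, a glutamate and cysteine importer of the same family as SLC1A5, fell from 36.3 and 32.0 CPM to 19.6 and 17.8 CPM (−0.87, SE 0.22), opposite in direction to SLC1A5. SLC7A7, a partner of SLC3A2 that exports basic amino acids, rose (0.68, SE 0.20). Of 41 genes of mTORC1 and its amino acid sensors, 5 rose and 1 fell, where 4.56% of all tested genes rose and 6% fell. Of the 41, limma voom called 5 higher and 1 lower, and DESeq2 2 higher and 1 lower. With the GC correction edgeR called 1 higher and 1 lower. Of all the genes each tested, limma voom and DESeq2 called 10.3% and edgeR with the GC correction 9.26%. LAMTOR3 fell (−0.88, SE 0.21) and LAMTOR2 rose (0.85, SE 0.23), although both are subunits of the same lysosomal scaffold. LAMTOR2 was at 0.40 without PSME4 KD 1. NPRL3, a subunit of the complex that restrains mTORC1 when amino acids are low, rose (0.89, SE 0.27), and passed neither by DESeq2 nor after the GC correction (0.67).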

How the data were processed

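Polyadenylated RNA of A549 cells was sequenced from Lexogen SENSE libraries, per the labels' protocols. The submitters' processing notes name cutadapt, STAR, DESeq2 and build hg38; the sources used here give no versions, counter, strand setting or annotation. The deposited table holds raw counts per gene, signal values equal to counts over a size factor, log2 values from a regularised log and from the authors' own comparison, and p-values, per the file headers. Its largest count per row was at least 6, so low rows had been removed. Only raw counts were tested; groups come from the sample titles.

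Counts were fitted in R 4.3.3 with edgeR 4.0.16 (filterByExpr, TMM, glmQLFit and glmQLFTest on all 4 libraries, group as the only term, 2 residual degrees of freedom). Intervals are unadjusted 95% t intervals from the quasi-likelihood fit. Their spread and degrees of freedom are moderated across all genes, so they rest on more than each gene's own 2. On counts simulated from this comparison, edgeR called 97 of 100 genes changed 4-fold and 70 of 98 changed 2-fold among 13338 genes, with 2 false calls. The simulated counts were drawn from the scatter of this same fit and held no GC trend between libraries. The 2 false calls therefore give no error rate for the measured libraries. Within each group the libraries were further apart than counting error alone gives (chi-square per degree of freedom 23.9 in control KD and 19.1 in PSME4 KD). Alternatives were DESeq2 1.42.0, limma voom (limma 3.58.1), other scalings and filters, a replicate block, each library left out, other thresholds, and a lowess correction (span 0.4) for GC content of the longest GENCODE 29 transcript, known for 97.8% of tested genes. RefSeq gene spans of 12 of the 34 genes overlap another gene, so their reads may have been shared or dropped.

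The genes and lists were chosen with earlier results of these data known. Named are PSME4, all 34 genes and, of each further list, up to 3 that passed, by smallest p. MAFG is named beside MAFK and MAFF as a small Maf protein of the same list. ASNS was added to the printed promoters for its known element.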

Additional observations from a re-analysis of the deposited data

How the results depend on the processing

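The 4 calls among the 33 genes held in number (3 to 5) under both other scalings, both filters, DESeq2 and limma voom. The number also held with the GC correction and a threshold of 0.10. Which genes passed changed with the GC correction, while DESeq2 lost NUPR1 and the threshold of 0.10 added ATF3. Against a log2 change of 0.58 there were 0 calls among the 33 genes, 1 among the further pathway genes and 115 in all, and PSME4 (−1.08) did not pass. A threshold of 0.10 gave 38 further pathway genes and 2240 in all. Without 1 library there were 0 to 0 calls among the 33 genes, 0 to 5 among the further ones and 43 to 281 in all, from 1426, and PSME4 ranged from −1.17 to −0.97, past the threshold only without PSME4 KD 2. The replicate numbers did not pair the libraries (correlation −0.018 of same-numbered deviations); a replicate block gave 1554 calls in all and 4 of the 33, the same split of 2 higher and 2 lower.

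Signs of some genes that did not pass turned. After the GC correction SESN2 was at −0.19, EIF4EBP1 at −0.090, CTH at 0.099, SLC3A2 at −0.0073 and SLC7A1 at −0.14; CTH was at 0.019 with library size as the only scaling. Without 1 library ATF5 ranged from −0.15 to 0.045, JDP2 from −0.26 to 0.53, PPP1R15A from −0.35 to 1.21, CHAC1 from −0.12 to 0.029 and DDIT4 from −0.13 to 0.042. EIF4EBP1 ranged from −0.065 to 0.28, SHMT2 from −0.045 to 0.57, ALDH1L2 from −0.21 to 0.48, ASNS from −0.27 to 2.19, CTH from −0.24 to 0.24, SLC7A1 from −0.086 to 0.098 and SLC38A2 from −0.24 to 0.66. Depth limits ASNS, CHAC1, ATF5 and SESN2 most, with under 80 counts per library.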
